A study of Mus musculus with 3 samples.

Results

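The AP-1 and BATF transcription factors described here are 10 genes, *Jun*, *Junb*, *Jund*, *Fos*, *Fosb*, *Fosl1*, *Fosl2*, *Batf*, *Batf3* and *Atf3*, taken by their symbols from the 31053 genes of the count tables, and all 10 were found. Their transcripts were counted in single CD4+ T cells sorted from mouse spleen. There were 3 libraries, 1 per group, so no value has a replicate, no test was made and every 95% interval below covers counting error only. The unstimulated WT library came from cells enriched for naïve CD4+ T cells and kept in DPBS, a phosphate-buffered saline. The stimulated WT library came from cells held in culture for 24 h with antibodies to CD3 and to CD28, at 1 μg/mL each, which engage the T cell receptor complex and its costimulatory receptor. The stimulated IFT20-KO library was treated in the same way. Both WT libraries carried the genotype Ift20 f/f without Cre, so that loxP-flanked *Ift20* alleles were common to all groups, and the IFT20-KO library carried Ift20 f/f CD4 cre. In that line Cre is driven from the Cd4 promoter, which is also active in immature thymocytes, so recombination of *Ift20*, which encodes a protein of intraflagellar transport, can precede the mature T cell. All mice were C57BL/6 males aged 5 to 10 weeks, and living CD3+ CD4+ cells were sorted before loading. How many mice gave each library was not given either.

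AP-1 is a dimer of basic leucine zipper (bZIP) proteins, in which a Jun protein pairs with another Jun protein or with a Fos protein and binds the TRE element of DNA. Signals from the T cell receptor and CD28 reach it through MAP kinases, which both induce *Fos* and *Jun* transcription and modify the proteins, and with NFAT it drives cytokine genes such as *Il2*. BATF and BATF3 pair with Jun proteins and, together with IRF4 or IRF8, bind composite elements in activated T cells, and ATF3 is a stress-induced factor of the same superfamily. *Fos*, *Jun* and related immediate-early genes are also known to be induced by tissue dissociation and cell sorting, which all 3 libraries underwent and the unstimulated cells reached without a culture step.

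The genes lie at a few shared places of the mouse genome (GRCm38, annotation GENCODE M21). *Fos* (ENSMUSG00000021250, chromosome 12, 85473890 to 85477273, plus strand) and *Batf* (ENSMUSG00000034266, chromosome 12, 85686669 to 85709087, plus strand) are 209 kb apart, and *Jdp2*, another bZIP gene, is the 1 protein-coding gene between them. *Batf3* (ENSMUSG00000026630, chromosome 1, 191097847 to 191108945, plus strand) and *Atf3* (ENSMUSG00000026628, chromosome 1, 191170296 to 191218039, minus strand) are 61.4 kb apart with *Fam71a* between them. *Junb* (ENSMUSG00000052837, 84974484 to 84978718, minus strand) and *Jund* (ENSMUSG00000071076, 70698949 to 70700616, plus strand) are both on chromosome 8 with 163 protein-coding genes between them. *Jun* (ENSMUSG00000052684, chromosome 4, 95049034 to 95052222, minus strand) and *Jund* each have a single exon. *Fosb* (ENSMUSG00000003545) is on chromosome 7 from 19302696 to 19310051, *Fosl1* (ENSMUSG00000024912) on chromosome 19 from 5447547 to 5455946 and *Fosl2* (ENSMUSG00000029135) on chromosome 5 from 32135801 to 32157842. *Jun*, *Junb*, *Jund*, *Fosl1* and *Atf3* overlap a gene on the other strand, which is *Prdx2* for *Junb*. Whether the counting used strand was not given in the sources used here, so reads of such pairs may have been mixed.

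The sequences before the start sites of *Jun*, *Fos*, *Batf* and *Atf3* are shown because each holds a motif of the cyclic AMP response element (CRE) kind. Jun and ATF dimers are known to bind such motifs. The set includes *Jun* and *Atf3*, the ends of the range of responses to stimulation described below, and *Fos* and *Batf*, which changed little over the whole libraries. RefSeq promoters were found for 9 of the 10 genes, the exception being *Fosl1*. Each line is the 120 bases before the RefSeq start, read 5′ to 3′ on the gene's strand (GRCm38.p6), with the matched letters in capitals. They are chr4:95052223-95052342 (minus strand), chr12:85473770-85473889 (plus), chr12:85686600-85686719 (plus) and chr1:191183334-191183453 (minus).
Jun: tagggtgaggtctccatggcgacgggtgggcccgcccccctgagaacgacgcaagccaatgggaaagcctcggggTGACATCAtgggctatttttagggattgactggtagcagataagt
Fos: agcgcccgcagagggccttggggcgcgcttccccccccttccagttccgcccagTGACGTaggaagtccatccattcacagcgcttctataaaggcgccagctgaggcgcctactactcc
Batf: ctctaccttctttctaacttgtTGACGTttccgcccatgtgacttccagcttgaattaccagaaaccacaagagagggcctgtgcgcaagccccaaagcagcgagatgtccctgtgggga
Atf3: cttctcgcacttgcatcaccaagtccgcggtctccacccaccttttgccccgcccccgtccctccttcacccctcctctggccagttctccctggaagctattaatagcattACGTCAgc

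*Jun* held TGACATCA from base -45 to -38, counted back from the start, and 2.93% of all 32851 RefSeq promoter windows of 250 bases held it on either strand. *Fos* held TGACGT from -66 to -61, *Batf* from -98 to -93, and *Atf3* its reverse complement ACGTCA from -8 to -3, and 6.47% of the windows held these letters. *Junb*, *Jund*, *Fosb*, *Fosl2* and *Batf3* held neither TGACATCA nor TGACGT in their 250 bases. TGACGT overlaps the full CRE, TGACGTCA, which 1.55% of windows held, and both shorter forms were chosen after the letters had been seen. The TRE itself, TGACTCA or TGAGTCA, was in 4.46% of windows, and neither it, nor the full CRE, nor a CArG box was in the 250 bases of any of the 9 genes. A match is a description of the letters and not evidence of binding.

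The count tables give, for every gene and cell barcode, a number of UMIs (unique molecular identifiers), sequence tags that mark single captured RNA molecules. Barcodes that had over 200 detected genes and a mitochondrial share under 15% numbered 8031 for unstimulated WT, 9903 for stimulated WT and 13920 for IFT20-KO cells, with median depths of 4627, 12167 and 5014.5 UMIs per cell and 37133949 to 116979076 UMIs in all. A level is a gene's UMIs per 1000000 UMIs of the library (CPM). Since each molecule is counted at 1 end, levels of different genes were compared without a length term. A sum over a library cannot tell fewer cells of a type from less RNA per cell. The targeted gene, *Ift20*, was at 64.4, 76.0 and 6.60 CPM in the order above. Markers of CD4+ T cells were found in 98.4% to 99.8% of cells, red cell and platelet markers had 1 UMI in all, and no cell held UMIs of more than 1 of the B cell markers *Cd79a*, *Cd79b* and *Ms4a1*. A UMI of any of these B cell markers was found in 1.42%, 0.959% and 1.03% of cells. This is used below as a rough level of stray RNA because no class of cells known to lack the AP-1 genes was present. It pools 3 genes, and stray RNA of another gene can lie higher or lower. The CD8+ T cell markers *Cd8a* and *Cd8b1* were found in more cells, 10.9%, 8.13% and 6.95%, with both in 2, 3 and 8 cells. Whether these UMIs were stray was not tested. From 125 to 207 barcode sequences were shared between a pair of libraries, at most 2.01% of either.

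Most AP-1 transcripts in these T cells came from *Jund* and *Junb*, in every library. JunD and JunB are the Jun proteins known for restraining growth in many cells, and JunB is also a partner of BATF in helper T cells. The 10 genes summed to 795 CPM in unstimulated WT, 686 CPM in stimulated WT and 626 CPM in IFT20-KO cells. *Jund* made up 44.7%, 46.6% and 50.02% of these UMIs, and *Junb* 33.9%, 34.3% and 33.1%. The next genes differed between libraries: *Jun* with 13.0% was the third in unstimulated cells, and *Batf* with 6.81% in stimulated WT cells. At least 1 UMI of any of the 10 genes was seen in 91.6%, 89.0% and 83.6% of cells, at the unequal depths given above.

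**Figure D1:**
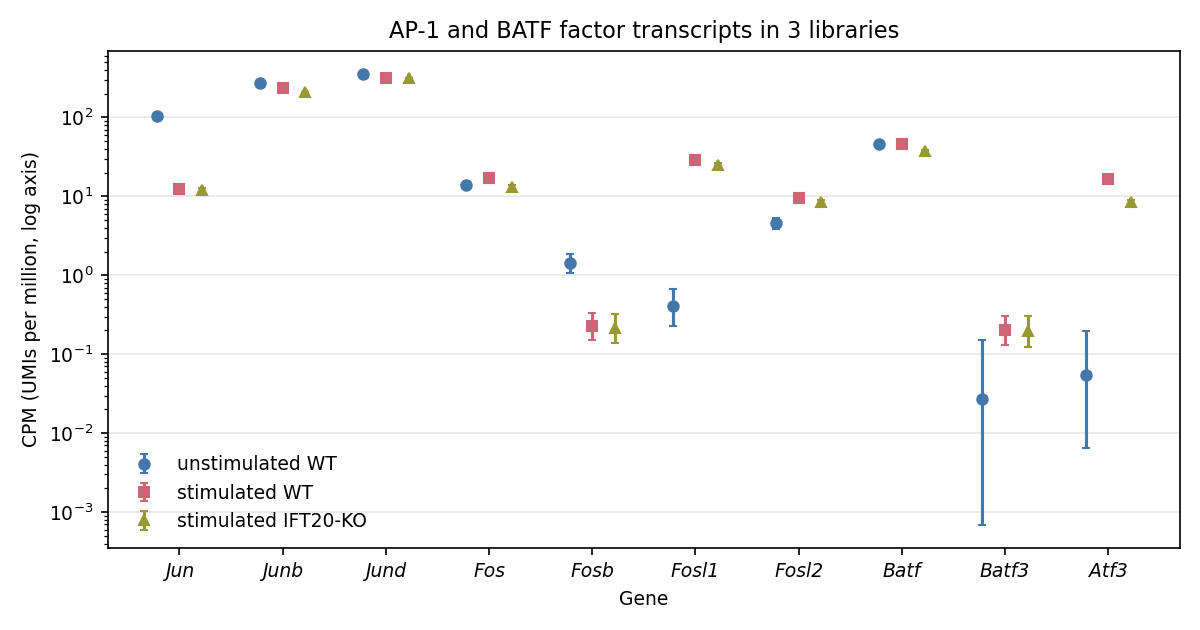
Levels of the 10 genes (horizontal axis) in CPM on a log axis, in the libraries of unstimulated WT, of stimulated WT and of stimulated IFT20-KO cells; points are the library values and bars the exact 95% Poisson intervals, which cover counting error only. *Jund* and *Junb* lie above 200 CPM in each library, *Jun* is at 103 CPM in the unstimulated library against 12.4 and 12.0 CPM after stimulation, and *Fosl1* and *Atf3* are below 1 CPM only in the unstimulated library.

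The comparison of stimulated with unstimulated WT cells asked which genes accompany activation. Of the 10 genes, 4 (*Fosl1*, *Fosl2*, *Batf3*, *Atf3*) were higher by 2-fold or more after stimulation and 2 (*Jun*, *Fosb*) lower, while 19.3% of the 13297 genes with at least 10 UMIs were higher by that fold and 23.0% lower. *Junb*, *Jund*, *Fos* and *Batf* were within 2-fold. The median log2 ratio was 0.14 over the 10 genes and -0.089 over all genes.

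Of the Jun family, *Jun* was the gene that differed by more than 2-fold over the whole libraries. It was at 103 CPM (3837 UMIs, interval 100.1 to 107) in unstimulated WT and 12.4 CPM (1455 UMIs, 11.8 to 13.1) in stimulated WT cells. The log2 ratio was -3.05 (-3.14 to -2.97), which is 8.31-fold lower. *Jun* UMIs were found in 31.5% of unstimulated cells and in 10.9% of stimulated ones, although the latter were deeper, and in 11.5% and 2.14% after each cell was thinned to 1400 UMIs, which left out the 801 and 421 shallower cells. Both thinned shares were above the stray-RNA level of the B cell markers at full depth.

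Over the whole libraries, *Junb* and *Jund* were within 1.5-fold of their level in resting cells. *Junb* was at 269 CPM (264 to 275) in unstimulated and 236 CPM (233 to 238) in stimulated WT cells, so the log2 ratio was -0.19 (-0.23 to -0.16). *Jund* was at 355 CPM (349 to 362) and 319 CPM (316 to 323) in the same order, with -0.15 (-0.18 to -0.13) as its log2 ratio. As UMIs per cell both log2 ratios were positive, 1.16 and 1.20 against a median of 1.26 over all genes. In shallow barcodes the difference was larger. The log2 ratio of *Junb* was -1.35 (-1.54 to -1.15) under 2000 UMIs and -0.85 (-1.02 to -0.69) from 2000 to 4000, and that of *Jund* -1.10 (-1.32 to -0.89) and -1.30 (-1.46 to -1.14), whereas from 4000 to 16000 UMIs both genes lay between -0.20 and 0.25. The share of cells with a UMI moved the opposite way from the CPM, 62.3% to 71.1% for *Junb* and 69.8% to 77.9% for *Jund*, and at 1400 UMIs per cell it was 29.7% against 24.4% and 37.2% against 31.0%.

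Among the Fos genes, *Fosl1* went from the lowest level to the highest, and the others kept their order. *Fosl1* encodes FRA-1, a Fos protein without the transactivation domain of c-Fos, and was nearly absent from unstimulated cells with 15 UMIs or 0.404 CPM (0.226 to 0.666). It was the leading Fos gene in stimulated WT cells with 3339 UMIs or 28.5 CPM (27.6 to 29.5). The log2 ratio was 6.14 (5.42 to 6.98), 70.7-fold, and this places it above 99.7% of all genes tested. Cells with a *Fosl1* UMI were 0.174% and 22.2% of the libraries, and 0.0692% and 3.53% at 1400 UMIs per cell.

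*Fosl2*, which encodes FRA-2, was at 4.55 CPM (3.89 to 5.29) in unstimulated and 9.52 CPM (8.97 to 10.1) in stimulated WT cells. Its log2 ratio of 1.07 (0.83 to 1.31) lay at the 2-fold limit, and as the mean of per-cell fractions it was 0.92. *Fos* itself, the classic immediate-early gene, was at 13.9 CPM (12.7 to 15.1) and 16.9 CPM (16.1 to 17.6). Its log2 ratio of 0.28 (0.14 to 0.42) was -0.25 as the mean of per-cell fractions and 1.63 as UMIs per cell, so its direction depended on how cells were weighted. *Fos* UMIs were found in 5.29% and 12.3% of cells, and in 1.66% and 2.42% at 1400 UMIs per cell. *Fosb* had 53 and 27 UMIs, or 1.43 CPM (1.07 to 1.87) and 0.231 CPM (0.152 to 0.336), and the log2 ratio was -2.63 (-3.35 to -1.93). Cells with a *Fosb* UMI, 0.585% and 0.273%, were below the stray-RNA level in both libraries.

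*Batf*, a partner of Jun proteins in effector T cells, was already present before stimulation. It was at 46.4 CPM (44.2 to 48.6) in unstimulated and 46.7 CPM (45.5 to 48.0) in stimulated WT cells, and the log2 ratio was 0.011 (-0.068 to 0.090). A UMI was found in 18.4% and 36.7% of cells at their own depth, but in 6.43% and 5.79% at 1400 UMIs per cell. As UMIs per cell the log2 ratio was 1.36, close to the all-gene median of 1.26. Within ranges of depth *Batf* was not level. Its log2 ratio was -0.59 (-1.13 to -0.042) under 2000 UMIs and -0.66 (-1.05 to -0.28) from 2000 to 4000. It was 0.19 (-0.048 to 0.42) from 4000 to 8000 and -0.33 (-0.53 to -0.12) from 8000 to 16000 UMIs.

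*Atf3* had the largest ratio of the 10 genes. There were 2 UMIs in the unstimulated library, 0.0539 CPM (0.0065 to 0.195), and 1934 in the stimulated WT library, 16.5 CPM (15.8 to 17.3). The log2 ratio was 8.26 with a counting interval of 6.41 to 11.31, and 99.9% of genes lay below it. *Batf3*, which is best known in dendritic cells, had 1 UMI and 24 UMIs, a log2 ratio of 2.93 with an interval of 0.31 to 8.29, and a share of cells of at most 0.212%, below the stray-RNA level.

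**Figure D2:**
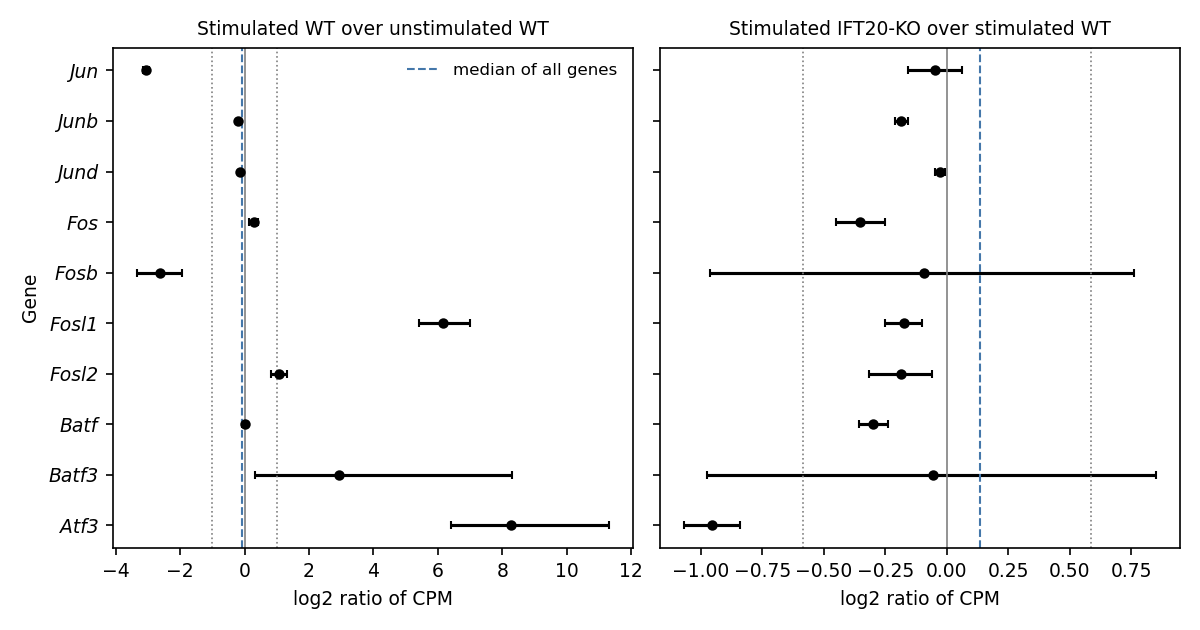
Log2 ratio of CPM (horizontal axis) for each of the 10 genes, stimulated over unstimulated WT on the left and stimulated IFT20-KO over stimulated WT on the right, with exact 95% counting intervals as bars; the dashed line is the median of all genes tested and dotted lines mark 2-fold on the left and 1.5-fold on the right. On the left, *Jun* at -3.05 and *Atf3* at 8.26 are the ends of the range; on the right, all 10 points are below 0, *Atf3* at -0.95 being the one past 1.5-fold.

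The related genes give the surroundings of these values. Of 32 other bZIP genes, 30 had at least 10 UMIs, and 10 were higher and 6 lower by 2-fold or more, with a median log2 ratio of 0.29. Those with at least 50 CPM and more than 2-fold were *Cebpb*, a C/EBP factor (17.9 to 81.4 CPM), *Atf4*, the factor of the amino acid and stress response (69.3 to 201 CPM), *Xbp1* of the unfolded protein response (42.7 to 115 CPM) and *Nfe2l2*, which encodes the antioxidant factor NRF2 (76.1 to 21.2 CPM). Of 22 genes of the MAP kinase route to AP-1, 1 was higher and 6 lower, with a median of -0.26. A further list held *Irf4* and *Irf8*, whose proteins act with BATF, and the NFAT genes *Nfatc1* and *Nfatc2*. Of these, 3 were higher and *Nfatc2* was lower. *Irf4* went from 1.75 to 115 CPM while *Batf* was level over the whole libraries. Of 20 genes known as AP-1 targets in T cells, 16 had at least 10 UMIs, of which 11 were higher and 2 lower by 2-fold or more. Over all genes tested, 19.3% were higher and 23.0% lower by that fold. The target list shares *Il2*, *Il2ra* and *Cd69* with the activation markers, and the part of AP-1 in its changes was not tested.

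Genes of handling were read beside *Jun* and *Fos*, because the cells of the unstimulated library were processed without culture. The list of 18 immediate-early genes known from dissociation and sorting, which leaves out the AP-1 genes, summed to 2156 CPM in unstimulated, 1790 CPM in stimulated WT and 1611 CPM in IFT20-KO cells. Of the 17 with at least 10 UMIs over both WT libraries, 6 were lower by 2-fold or more after stimulation and 4 higher. Over all genes tested, 23.0% were lower and 19.3% higher by that fold. The lower ones on the list were *Zfp36*, *Btg2*, *Klf6*, *Socs3*, *Rhob* and *Ppp1r15a*, of which the study names *Btg2* as a quiescence gene. The higher ones were *Egr1*, *Ier3*, *Nr4a1* and *Gadd45b*, and *Egr1* and *Nr4a1* are themselves known targets of T cell receptor signaling.

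The inducible heat shock genes differed more. *Hspa1a* was at 32.8 CPM in unstimulated and 0.0598 CPM in stimulated WT cells, and *Hspa1b* at 23.3 and 0.0855 CPM, so both were nearly confined to the unstimulated library, although the whole list of 11 heat shock genes had a median log2 ratio of 0.83 with 5 higher and 4 lower. Among all genes tested, 19.3% were higher and 23.0% lower by 2-fold or more. *Hspa1a* and *Hspa1b* were chosen after their values had been seen. The 892 unstimulated cells with an *Hspa1a* UMI had *Jun* at 130 CPM against 99.6 CPM in the other cells, a log2 ratio of 0.38 (0.25 to 0.51). *Fos* was at 15.3 against 13.7 CPM, with an interval of -0.22 to 0.53 that includes 0. Among cells of 4000 or more UMIs, the *Jun* ratio was 0.40 (0.26 to 0.55). The part of handling in the level of *Jun* and *Fos* was not tested.

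*Jun*, *Fos*, *Fosb* and *Fosl2* were densest in the shallowest unstimulated barcodes. The 925 unstimulated cells under 2000 UMIs, 11.5% of the library with a median of 9.97% mitochondrial UMIs, had *Jun* at 535 CPM (490 to 583). The other unstimulated cells had *Jun* at 113 CPM from 2000 to 4000 UMIs, 86.0 CPM from 4000 to 8000 and 97.2 CPM above, with a median mitochondrial share between 2.24% and 2.29%. So the level was more than 4 times higher in the shallow barcodes and changed little among the rest.

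In the same order of depth, *Fos* was at 88.0 CPM (70.5 to 109), 12.4, 12.3 and 8.84 CPM. *Fosb* was at 17.2 CPM (10.0 to 27.5) in the shallow barcodes on 17 UMIs, and at 1.03, 0.878 and 1.82 CPM in the others. *Fosl2* was at 19.2 CPM (11.6 to 30.0) on 19 UMIs, against 2.23, 4.43 and 4.94 CPM. *Junb* was at 478 CPM in the shallow barcodes and 243 to 310 CPM in the others, while *Jund*, at 357 CPM, lay within the 342 to 405 CPM of the others. The 18 handling genes summed to 2664 CPM in the shallow barcodes against 2056 to 2429 CPM, and the 11 heat shock genes to 3408 against 4221 to 4877 CPM. Neither list shared the size of the *Jun* and *Fos* difference. The 5 activation markers summed to 423 CPM in the shallow barcodes against 157 to 180 CPM in the others, and the 5 markers of CD4+ T cells to 2367 against 3384 to 3742 CPM. The part of RNA quality and of the kind of cell in these differences was not tested.

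The difference between unstimulated and stimulated cells in *Jun* was present without the shallow barcodes. Among cells of 4000 to 8000 UMIs, *Jun* was at 86.0 CPM in unstimulated and 19.6 CPM (15.3 to 24.8) in stimulated WT cells. *Fos* was at 12.3 CPM (10.98 to 13.7) and at 28.4 CPM (23.1 to 34.6) there, more than 2-fold higher after stimulation. *Fosb* had 23 UMIs and 0 UMIs in that range, so a ratio over the 546 stimulated cells would rest on the floor of 3 counts and none is given here. From 8000 to 16000 UMIs, the levels of *Jun* were 97.2 CPM before and 10.5 CPM after stimulation, so that its log2 ratio was -3.21 (-3.40 to -3.02). *Fos* was at 8.84 and 18.2 CPM in these deeper cells, with 1.04 (0.55 to 1.58) as its log2 ratio. *Fosb* had 7 and 8 UMIs there, 1.82 and 0.146 CPM, and its log2 ratio was -3.64 (-5.30 to -1.95).

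**Figure D3:**
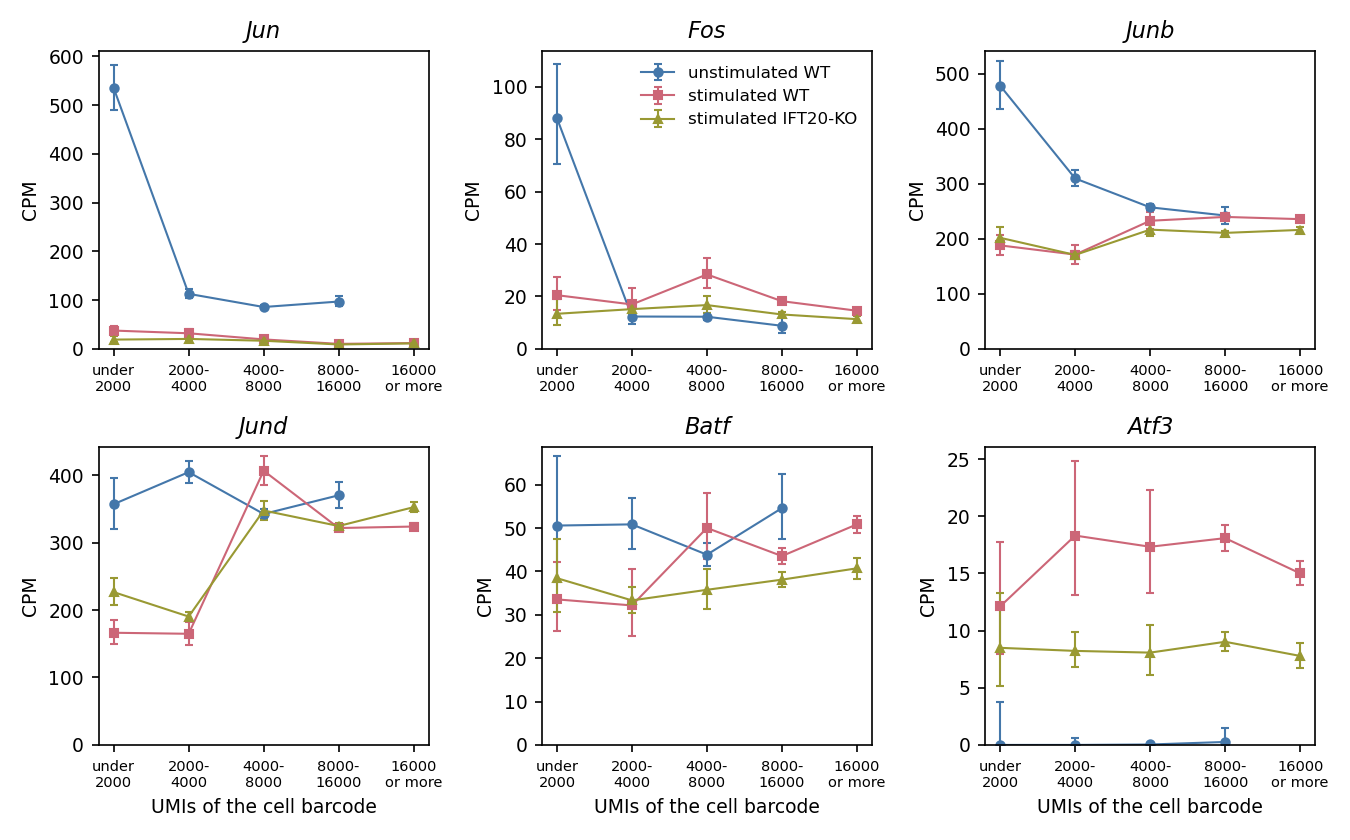
Levels in CPM of *Jun*, *Fos*, *Junb*, *Jund*, *Batf* and *Atf3* (6 panels, vertical axes from 0) against the UMIs of the cell barcode in 5 ranges, for the 3 libraries; points are sums over the cells of a range and bars exact 95% Poisson intervals, and unstimulated cells have no point in the deepest range. *Jun* falls from 535 to 113 CPM between the first 2 ranges of the unstimulated library, and *Atf3* in the IFT20-KO library lies between 7.78 and 9.02 CPM in every range.

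In the shallow barcodes of the stimulated libraries *Jund* was lower than in deeper cells, while *Jun* was higher, as in unstimulated cells. In stimulated WT cells under 2000 UMIs and from 2000 to 4000 UMIs, which had median mitochondrial shares of 10.0% and 10.7%, *Jund* was at 166 and 165 CPM against 322 to 407 CPM in deeper cells. *Jun* was at 37.7 and 32.2 CPM in them against 10.5 to 19.6 CPM. In IFT20-KO cells, of which 5373 or 38.6% lay between 2000 and 4000 UMIs, *Jund* was at 190 CPM in that range against 325 to 353 CPM in deeper cells. *Jun* was at 20.6 CPM in that range against 9.24 to 16.9 CPM in deeper cells.

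Transcripts of *Fos* and *Fosl2* in each library, and of *Atf3* in both stimulated libraries, were denser in cells that also held *Nr4a1*, an immediate-early gene of T cell receptor signaling, while *Batf* and *Jund* were spread nearly evenly between stimulated cells with and without it. Cells of 4000 or more UMIs were split by an *Nr4a1* UMI, and the cells with one were slightly deeper, with median depths of 5679 against 5186 UMIs, 14677 against 13416.5 and 12175 against 11352 for unstimulated WT, stimulated WT and IFT20-KO cells. *Nr4a1* was chosen after earlier results were known, and cells are not replicates.

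*Fos* in the 3314 stimulated WT cells with *Nr4a1* was at 27.2 CPM (25.8 to 28.6) and in the 4290 without at 7.89 CPM (7.20 to 8.63), a log2 ratio of 1.78 (1.63 to 1.94). *Atf3* was at 28.9 CPM against 6.03 CPM, a log2 ratio of 2.26 (2.10 to 2.43). *Fosl2* was at 14.97 against 4.63 CPM, a log2 ratio of 1.69 (1.49 to 1.90). *Fosl1* at 0.78 and *Junb* at 0.61 were in between, *Jund* at 0.06 and *Batf* at 0.01 near 0, and *Jun* at -0.48 (-0.65 to -0.32) was lower in the cells with *Nr4a1*.

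The 221 unstimulated cells with *Nr4a1* had *Fos* at 51.9 CPM (40.6 to 65.5) against 9.88 CPM, *Fosl2* at 19.8 CPM (13.0 to 28.7) against 3.80 CPM, *Junb* at 428 against 246 CPM and *Jun* at 78.3 against 87.8 CPM. *Fosb*, on few UMIs, was at 6.58 against 0.725 CPM, a log2 ratio of 3.18 (1.87 to 4.37). In both stimulated libraries the *Fosb* interval of this split included 0. *Fos* and *Jun*, often induced together, thus differed in this split. *Fos* was 5.26-fold higher in these cells and the *Jun* interval of the log2 ratio, -0.46 to 0.11, included 0. Both genes were densest in the shallowest unstimulated barcodes. Of 7230 thinned unstimulated cells, 21 held both, where independence gives 13.8. In the IFT20-KO library the log2 ratios of the *Nr4a1* split were 1.54 for *Fos*, 1.73 for *Atf3*, 1.53 for *Fosl2*, 0.51 for *Junb* and -0.10 for *Batf*.

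**Figure D4:**
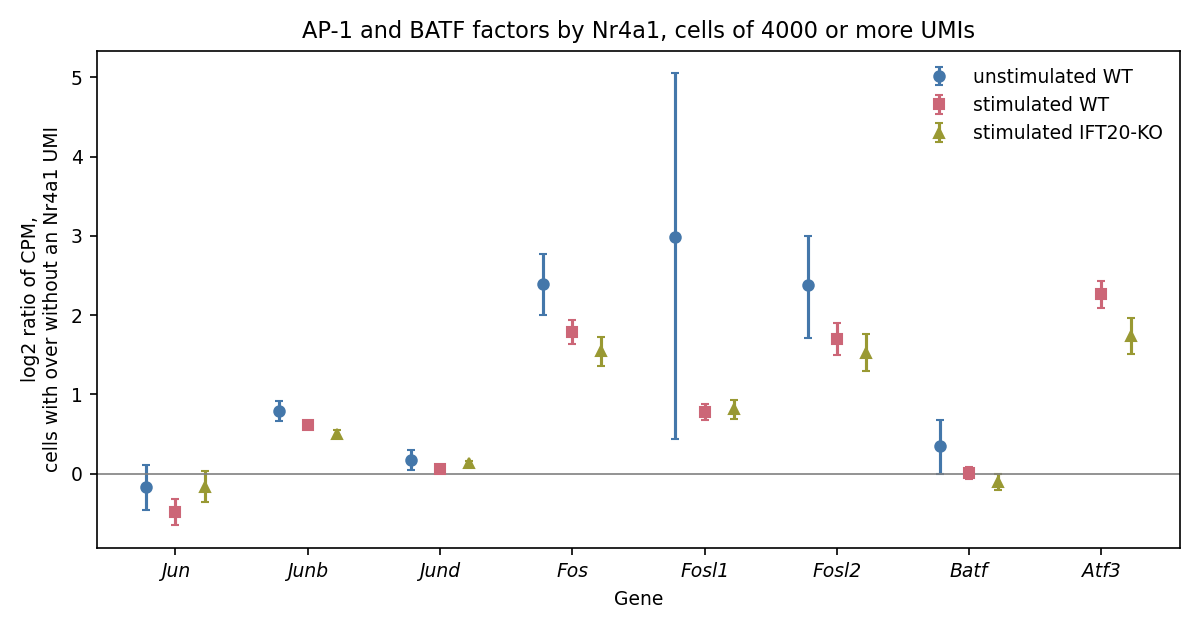
Log2 ratio of CPM between cells with and without an *Nr4a1* UMI (vertical axis) for 8 of the genes, among cells of 4000 or more UMIs of the 3 libraries; bars are exact 95% counting intervals, the line marks 0, and *Atf3* has no unstimulated point because it had 2 UMIs. *Fos*, *Fosl2* and *Atf3* lie at 1.5 or more in each library shown and *Batf* and *Jund* between -0.10 and 0.35.

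Other marker genes were also chosen with results known, and some split the same factors much as *Nr4a1* did. Unstimulated cells of 4000 or more UMIs with *Egr1* had log2 ratios of 2.14 for *Fos*, 1.32 for *Fosl2*, 0.76 for *Junb* and -0.014 for *Jun*. Stimulated WT cells of that depth with *Ccl4*, a chemokine gene, had 1.09 for *Atf3*, 0.82 for *Fosl2*, 0.64 for *Fos* and -0.37 for *Jun*. Not all splits were alike. Among unstimulated cells of 4000 or more UMIs, the 214 with a UMI of *Foxp3*, the factor of regulatory T cells, had *Fos* at 37.5 CPM against 10.6 CPM in the 5160 others, a log2 ratio of 1.82 (1.36 to 2.26), with median depths of 5508.5 and 5193 UMIs. *Junb* was higher in them by 0.19 (0.042 to 0.34) on the log2 scale, and the intervals of *Jun*, -0.055 to 0.46, and *Batf*, -0.53 to 0.28, included 0. Stimulated WT cells of 4000 or more UMIs that kept *Il7r*, a naïve marker, had *Atf3* at 38.8 against 15.5 CPM and *Fos* at 31.8 against 16.1 CPM, but *Fosl1* at 17.1 against 29.3 CPM. In cells with *Il2*, *Fosl1* was at 41.8 against 25.1 CPM and *Fos* at 17.7 against 16.5 CPM. In cells with *Cdkn1a*, which encodes the CDK inhibitor p21, *Fosl1* was at 36.3 against 21.9 CPM and *Fos* at 16.5 against 17.0 CPM. The cells with *Il2* and with *Cdkn1a* were deeper than the others, with medians of 16482 against 13403 and 16010.5 against 12637 UMIs. In stimulated WT cells *Fosl1* thus was higher with *Il2* and with *Cdkn1a*, where *Fos* had intervals that included 0, and both were higher with *Nr4a1*. In IFT20-KO cells with *Il2* both *Fosl1* and *Fos* were higher, by 0.58 (0.45 to 0.72) and 0.51 (0.31 to 0.70) on the log2 scale, and with *Cdkn1a* the ratio was 0.69 for *Fosl1* while the *Fos* interval was -0.022 to 0.32.

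A few cells held a large part of some transcripts. In stimulated WT cells, the 76 cells (0.767%) with 5 or more *Atf3* UMIs held 28.7% of them, and 44 cells with 5 or more *Fos* UMIs held 16.5%, whereas the 25 cells with 5 or more *Fosl1* UMIs held 4.04%. In thinned cells the variance of the UMI count over its mean was 1.30 for *Atf3*, 1.33 for *Jun* and 1.18 for *Fos*, against 1.02 for *Batf* and 1.03 for *Fosl1*, where 1 is the value of random counting. Before thinning, 3 cells with 10 or more *Jun* UMIs held 4.60% of them, and the largest count in a cell was 44. How far the *Jun* value rests on such cells was not tested. Over thinned cells, 229 had *Fos*, 209 *Atf3* and 12 both, where independence gives 5.05. No gene reached a Pearson r of 0.2 with *Fos*, *Jun*, *Junb*, *Fosl2* or *Batf* over the cells of any library, the highest being 0.13 for *Junb* with *Nfkbia* over 9482 stimulated WT cells. In counts this sparse such values are no finding.

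The comparison of IFT20-KO with WT after stimulation asked what loss of IFT20 changes, and *Atf3* was the factor that stood out. It was at 16.5 CPM (1934 UMIs, 15.8 to 17.3) in stimulated WT and 8.53 CPM (908 UMIs, 7.99 to 9.10) in IFT20-KO cells, a log2 ratio of -0.95 (-1.07 to -0.84), which is 1.94-fold lower. It was the 1 gene of the 10 lower by 1.5-fold or more and none was higher by that fold, while 3.27% of the 13504 genes with at least 10 UMIs were lower and 13.4% higher. This comparison uses the same stimulated WT library as the one above, so the values of the 2 are not independent.

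The lower *Atf3* level was present in barcodes of like depth. The log2 ratio was -1.15 (-1.68 to -0.60) from 2000 to 4000 UMIs, -1.10 (-1.65 to -0.55) from 4000 to 8000, -1.003 (-1.16 to -0.85) from 8000 to 16000 and -0.95 (-1.17 to -0.73) above. Under 2000 UMIs it was -0.51 with an interval of -1.45 to 0.40 on 26 and 19 UMIs. The share of cells with a UMI was 10.4% in WT and 4.64% in IFT20-KO cells, and 2.20% and 1.25% at 1400 UMIs per cell. The stray-RNA level of 1.03% in IFT20-KO cells was taken at full depth, so it is to be set beside the 4.64%.

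*Atf3* was lower on both sides of the *Nr4a1* split. Among cells of 4000 or more UMIs with *Nr4a1* it was at 28.9 CPM (27.5 to 30.4) in WT and 14.2 CPM (13.1 to 15.5) in IFT20-KO cells, and among cells without at 6.03 CPM (5.43 to 6.68) and 4.28 CPM (3.73 to 4.89). *Nr4a1* itself was at 159 and 113 CPM over the libraries. *Il7r*-positive cells of 4000 or more UMIs had *Atf3* at 38.8 CPM in WT and 11.1 CPM in IFT20-KO cells. Whether these within-library differences themselves differ between the genotypes cannot be tested with 1 library each.

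Over the whole libraries, all other factors were within 1.5-fold of WT and on the lower side. *Fos* was at 16.9 CPM in WT and 13.2 CPM (12.5 to 13.9) in IFT20-KO cells, a log2 ratio of -0.35 (-0.45 to -0.25). *Batf* was at 46.7 and 38.0 CPM (36.8 to 39.2), with -0.30 (-0.36 to -0.24) on the log2 scale. *Junb* was at 236 and 207 CPM (204 to 210), with -0.19 (-0.21 to -0.16).

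*Fosl1* was at 28.5 and 25.3 CPM and *Fosl2* at 9.52 and 8.36 CPM, with log2 ratios of -0.18 and -0.19, and *Jund* at 319 and 313 CPM with -0.028. For *Jun*, at 12.4 and 12.0 CPM, the log2 ratio was -0.049 with an interval of -0.16 to 0.061 over the whole libraries. *Fosb* with 27 and 23 UMIs and *Batf3* with 24 and 21 UMIs had intervals from below -0.9 to above 0.7, so a difference of either sign was not detectable at this depth. All 10 ratios were below the median of all genes, 0.14, and the median of the 10 was -0.18. The all-gene median moved to -0.034 under median-ratio scaling and to -0.49 as UMIs per cell, so the values are best read against it. These scalings move all genes by the same amount. That all 10 stayed below the median under them was therefore fixed in advance and adds nothing.

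Within ranges of depth some of these ratios were larger or of the other sign. *Jun* had log2 ratios of -0.97 (-1.54 to -0.42) under 2000 UMIs and -0.64 (-1.02 to -0.25) from 2000 to 4000, both past 1.5-fold, and of -0.22 (-0.66 to 0.23), -0.18 (-0.36 to -0.0078) and -0.082 (-0.28 to 0.12) in the deeper ranges. *Jund* was higher in 3 of the 5 ranges, by 0.45 (0.25 to 0.65) under 2000 UMIs, 0.21 (0.051 to 0.37) from 2000 to 4000 and 0.12 (0.086 to 0.16) above 16000, and was at -0.23 (-0.32 to -0.13) from 4000 to 8000. *Fosl2* was at -1.36 (-2.51 to -0.30) under 2000 UMIs, on 27 and 11 UMIs, and between -0.41 and -0.16 in the other ranges. *Fosl1* was at 0.27 (-0.19 to 0.75) from 4000 to 8000 UMIs and between -0.31 and -0.10 in the others.

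Depth and *Batf* moved together to some degree. The log2 ratio of *Batf* was 0.20 (-0.27 to 0.67) under 2000 UMIs and 0.051 (-0.31 to 0.43) from 2000 to 4000, but -0.48 (-0.77 to -0.20) from 4000 to 8000, -0.19 (-0.28 to -0.11) from 8000 to 16000 and -0.32 (-0.42 to -0.22) above. *Fos* was lower at every depth, from -0.16 to -0.76 (-1.16 to -0.36), the latter from 4000 to 8000 UMIs and past 1.5-fold, with intervals that included 0 in the first 2 ranges. The part of the unequal depth of the libraries was not tested further.

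Of the related lists, 29 of the 32 other bZIP genes had at least 10 UMIs, of which 3 were higher and 1 lower by 1.5-fold or more, with a median log2 ratio of 0.035. Of the 22 genes of the MAP kinase route, 1 was higher and none lower, with a median of 0.22. Of the 18 known AP-1 targets with enough UMIs, 1 was higher and 5 lower with a median of -0.26. The higher one was *Il13*, on 2 UMIs in WT and 8 in IFT20-KO cells. The lower ones were *Il2*, *Il4*, *Ifng* and, on few UMIs, *Il3* (14 and 1) and *Il10* (9 and 2). *Il2*, the classic joint target of AP-1 and NFAT, was at 121 CPM in WT and 68.7 CPM in IFT20-KO cells. The part of AP-1 in these values was not tested. Over all genes tested, 13.4% were higher and 3.27% lower by 1.5-fold or more. Of the 4 listed IRF and NFAT genes, *Irf8* was lower, at 56.7 and 21.4 CPM, and *Irf4* was at 115 and 122 CPM. Of the 18 handling genes, 2 were lower and none higher, with a median of -0.20, so immediate-early genes outside the AP-1 family were also mostly on the lower side.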

How the data were processed

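For each library the authors aligned reads, called cell barcodes and counted UMIs with Cell Ranger (the file headers give 3.1.0, the methods name another version for demultiplexing; build mm10) and deposited raw counts per gene and barcode without normalization. The methods name a 3′ kit and the labels a 5′ kit, so the transcript end that was counted is uncertain. Cells with more than 200 genes and mitochondrial UMIs under 15% were kept, which are the thresholds named in the study's methods. All deposited barcodes numbered 8253 for unstimulated and 10320 for stimulated WT, which are also the numbers of cells drawn in the study, so the kept 8031 and 9903 cells are a smaller set. UMIs were summed per library and divided by the library total (CPM). Intervals are exact Poisson for CPM, exact binomial for ratios and exact Clopper-Pearson for shares, at 95%. A gene entered a comparison with at least 10 UMIs over both libraries, and a count of 0 was set to a floor of 3 counts in ratios. The libraries held medians of 4627, 12167 and 5014.5 UMIs per cell, and intervals cover counting error only. With 1 library per group no test was run. The calculation was tested on simulated data.

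The 10 genes, the gene lists and the genes used to split cells were chosen with earlier results of these data known. All 10 genes are named, and of the other bZIP genes those with at least 50 CPM in a library and more than 2-fold under stimulation. Further genes were named after their values had been seen. Genes like a factor over cells would have been named at an r of 0.2 or more among genes in at least 5% of thinned cells. No doublets were removed. One listed marker gene is not reported here. Locations are from GENCODE M21 and promoters from RefSeq. Alternatives covered scaling, cell filters, thinning to 1400 UMIs per cell and UMI minimums. Python 3.11.15, numpy 2.4.6, scipy 1.17.1, pandas 2.3.3 and matplotlib 3.10.9 were used.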

Additional observations from a re-analysis of the deposited data

How the results depend on the processing

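With UMIs per cell in place of CPM, 8 genes were higher by 2-fold or more after stimulation in place of 4. In IFT20-KO cells 10 were then lower by 1.5-fold or more in place of 1. The median log2 ratio of all genes was 1.26 and -0.49 in the 2 comparisons with UMIs per cell. These counts are therefore no result about the 10 genes alone, and the shares of all genes past these folds were not computed for UMIs per cell. The count of genes higher after stimulation was 3 after thinning to 1400 UMIs and 3 with a minimum of 200 UMIs, without *Batf3*. It was also 3 as the mean of per-cell fractions, without *Fosl2*. The count of genes lower after stimulation, 2 in the main setting, was 1 among barcodes of 4000 to 8000 UMIs, 1 after thinning to 1400 UMIs and 1 with a minimum of 200 UMIs, *Fosb* being the gene that dropped out. Among barcodes of 4000 to 8000 UMIs it did so only through the floor of 3 counts, as it had 23 UMIs before and 0 UMIs after stimulation. The count lower in IFT20-KO cells was 2 among barcodes of 4000 to 8000 UMIs, where *Fos* joined *Atf3*, and 2 after thinning, where *Fosb* did on few UMIs. No gene was higher by 1.5-fold in IFT20-KO cells under any alternative. *Atf3* kept its sign under all 9 alternatives in both comparisons, with log2 ratios from -1.58 to -0.92 in IFT20-KO cells, and *Jun* from -3.13 to -1.70 under stimulation. Signs of ratios near 0 were not kept, such as *Jun* at 0.046 and *Fosb* at 0.53 in IFT20-KO cells once the barcodes far below the library's median depth were left out, *Fosl1* at 0.27 among barcodes of 4000 to 8000 UMIs, and *Jund* at 0.041 among barcodes of 4000 or more UMIs, a filter chosen after seeing the data. No paired analysis was possible because the labels give no replicate numbers and each group is 1 library, so no replicate could be left out either. Depth limits *Fosb* and *Batf3*, which had at most 53 UMIs in a library.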
